A study of Mus musculus with 4 samples.

Results

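The 10 genes described here are components of the circadian clock and its first outputs: *Arntl*, *Npas2*, *Nr1d1*, *Nr1d2*, *Dbp*, *Tef*, *Per1*, *Per2*, *Per3* and *Cry1*. They were taken by exact gene name from a table of 55401 genes, and all 10 were present. Each was compared heart by heart in 4 mouse heart libraries of polyA RNA, 2 wild-type (WT 1 and WT 2) and 2 *Ctcf* heterozygous (Het 1 and Het 2). All hearts came from 8-week-old C57BL/6N mice. The heterozygous mice carried the CTCF R567W missense mutation on 1 allele, in a line made by CRISPR/Cas9 editing. The mutation is not restricted to a cell type of the heart, and because it is a missense mutation the transcript level of *Ctcf* is no check of the genotype. The mice were housed in 12 h of light and 12 h of dark with food always present. The hour at which each heart was collected is not given in the sources used here, so hour of collection and genotype cannot be told apart. The labels number the libraries of each genotype without stating that each came from a separate mouse. SD values measure the spread between these libraries. SE values come from limma, which draws the variance of each gene towards that of genes at a similar level.

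The clock of mammalian cells is a transcriptional feedback loop. ARNTL (also called BMAL1) pairs with CLOCK or NPAS2 and activates genes with E-boxes in their promoters, among them the *Per* and *Cry* genes, whose proteins return to block the pair. A second loop is formed by NR1D1 and NR1D2 (the REV-ERB repressors), which compete with ROR activators for ROR elements, including those of *Arntl* itself. DBP and TEF activate genes through D-boxes and form an output arm. In mouse tissues with a running clock, *Arntl* and *Npas2* transcripts peak around dawn and are called morning-phase here. *Nr1d1*, *Dbp*, *Nr1d2*, *Per3*, *Tef*, *Per1* and *Per2* follow through the day into the evening and are called evening-phase, and *Cry1* peaks late in the night. The heart clock runs in cardiomyocytes and drives daily rhythms of metabolism and of ion channel expression. A single sample of each heart can be placed in this cycle only through the relative levels of genes with different peaks. The ratio of morning-phase to evening-phase genes read here does not by itself fix an hour.

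Promoter windows of members with a match to a clock motif are shown because these motifs name the loops described above. The 300-base windows run from 250 bases before to 50 bases after an annotated start (RefSeq sequence, GRCm38.p6, printed 5′ to 3′ on the strand of the gene). At least 1 window was found for 9 of the 10 genes, all except *Per2*, and there were 12 windows in all. Both strands were searched for the E-box CACGTG, the D-box TTATGTAA and the ROR element TAGGTNA. Capitals mark the matches, and no match overlapped another motif. The windows below are chr7:113207261-113207560 (plus strand) for *Arntl*, chr4:151044616-151044915 (minus strand) for *Per3*, chr15:81802423-81802722 (plus strand) for *Tef*, chr11:69098699-69098998 (plus strand) for *Per1* and chr10:85185005-85185304 (minus strand) for *Cry1*.
Arntl: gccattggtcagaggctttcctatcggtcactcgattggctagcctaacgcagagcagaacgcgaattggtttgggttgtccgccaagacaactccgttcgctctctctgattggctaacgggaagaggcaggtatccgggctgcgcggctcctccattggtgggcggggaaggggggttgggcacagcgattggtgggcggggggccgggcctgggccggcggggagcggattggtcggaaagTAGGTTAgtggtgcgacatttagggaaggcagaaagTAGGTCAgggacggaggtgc
Per3: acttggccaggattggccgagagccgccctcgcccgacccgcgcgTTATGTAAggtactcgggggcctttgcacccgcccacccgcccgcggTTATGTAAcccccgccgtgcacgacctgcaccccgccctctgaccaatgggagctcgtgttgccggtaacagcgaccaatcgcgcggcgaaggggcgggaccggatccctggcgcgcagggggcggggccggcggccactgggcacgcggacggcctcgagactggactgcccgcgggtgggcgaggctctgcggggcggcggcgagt
Tef: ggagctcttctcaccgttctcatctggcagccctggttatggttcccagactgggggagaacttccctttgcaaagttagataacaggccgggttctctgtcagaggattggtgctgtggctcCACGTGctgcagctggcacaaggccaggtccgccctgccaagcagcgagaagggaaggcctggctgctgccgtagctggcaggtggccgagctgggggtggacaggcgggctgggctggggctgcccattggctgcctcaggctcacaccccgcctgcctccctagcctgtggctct
Per1: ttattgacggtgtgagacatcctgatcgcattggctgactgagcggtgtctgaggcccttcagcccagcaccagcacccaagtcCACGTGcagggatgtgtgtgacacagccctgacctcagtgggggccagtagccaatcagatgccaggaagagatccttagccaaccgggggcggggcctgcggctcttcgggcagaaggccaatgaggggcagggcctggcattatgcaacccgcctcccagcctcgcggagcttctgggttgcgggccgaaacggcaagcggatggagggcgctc
Cry1: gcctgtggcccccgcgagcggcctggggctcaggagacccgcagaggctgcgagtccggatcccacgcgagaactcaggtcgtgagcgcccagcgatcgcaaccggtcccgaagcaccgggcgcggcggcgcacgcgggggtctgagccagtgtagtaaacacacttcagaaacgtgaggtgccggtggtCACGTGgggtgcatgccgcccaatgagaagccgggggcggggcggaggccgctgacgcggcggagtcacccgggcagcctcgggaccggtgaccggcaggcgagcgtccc

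*Arntl* was the only member with ROR elements, and its window held 2, beginning 6 bases upstream of the start and 30 bases downstream of it. An ROR element was present in 8.29% of 32851 mouse promoter windows of the same length. *Per3* held 2 D-boxes, beginning 205 and 158 bases upstream, and a D-box was present in 0.938% of windows. E-boxes were found in 3 members, *Tef* (127 bases upstream), *Per1* (166 bases upstream) and *Cry1* (60 bases upstream), against 7.15% of all windows. The second window of *Tef* held an E-box too, 138 bases upstream, and the second window of *Arntl* overlaps the printed window and holds the first of its ROR elements. The windows of *Npas2*, *Nr1d1*, *Nr1d2* and *Dbp* held none of these motifs. A match describes the letters only, and elements outside the windows were not searched.

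Expression was read as TPM (each transcript's length-corrected share of a library), which allow levels of different genes to be compared and keep no sequencing depth, so the counting error of a value is unknown. Mitochondrially encoded genes took 61.1% to 68.6% of TPM, and each library was therefore divided by a median-of-ratios factor between 0.818 and 1.26 to give the scaled TPM reported below. After scaling, the median log2 fold change of the 10036 tested genes (heterozygous minus wild type) was −0.00, against −0.35 with TPM as deposited. With mitochondrially encoded genes removed and TPM rescaled it was −0.31, and what lay behind that shift was not tested. Cardiomyocyte markers had the highest sum of the marker lists in every library, at 18709 to 22736 scaled TPM over 7 genes. Atrial markers (4 genes) summed to 806 in WT 1 and to 1918 to 3281 in the other hearts, and erythroid markers (5 genes) to 2120 in Het 2 and 930 to 987 in the others. Endothelial, fibroblast, smooth muscle and macrophage lists summed to 16.2 to 76.9. The adipocyte list held *Fabp4*, which endothelial cells also express, at 289 to 412, while *Adipoq*, *Plin1*, *Lep*, *Cidec* and *Ucp1* were each at 0.331 or below. In bulk tissue, fewer cells of a type and less RNA per cell cannot be told apart.

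Within the clock set, the D-box factors were the most abundant and *Arntl*, *Per1*, *Cry1* and *Npas2* the least. By wild-type mean the order of scaled TPM was *Dbp*, *Tef*, *Nr1d2*, *Nr1d1*, *Per3*, *Per2*, *Arntl*, *Per1*, *Cry1*, *Npas2*. In the heterozygous hearts *Per3* stood above *Nr1d1* and *Npas2* above *Cry1*, with the other places unchanged. Within both genotypes the values of *Dbp* and *Tef* overlapped, as did those of *Nr1d1* and *Per3* and of *Arntl* and *Per1*, so those neighbours were not separated. *Cry1* and *Npas2* overlapped in the wild-type hearts only, and *Per2* and *Arntl* in the heterozygous hearts only. *Tef* and *Nr1d2* did not overlap within either genotype. *Npas2* and *Cry1* had a mean TPM under 1, the minimum for testing, so 8 of the 10 genes were tested for genotype. Their fold changes are given from the same fit without that minimum.

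**Figure D1:**
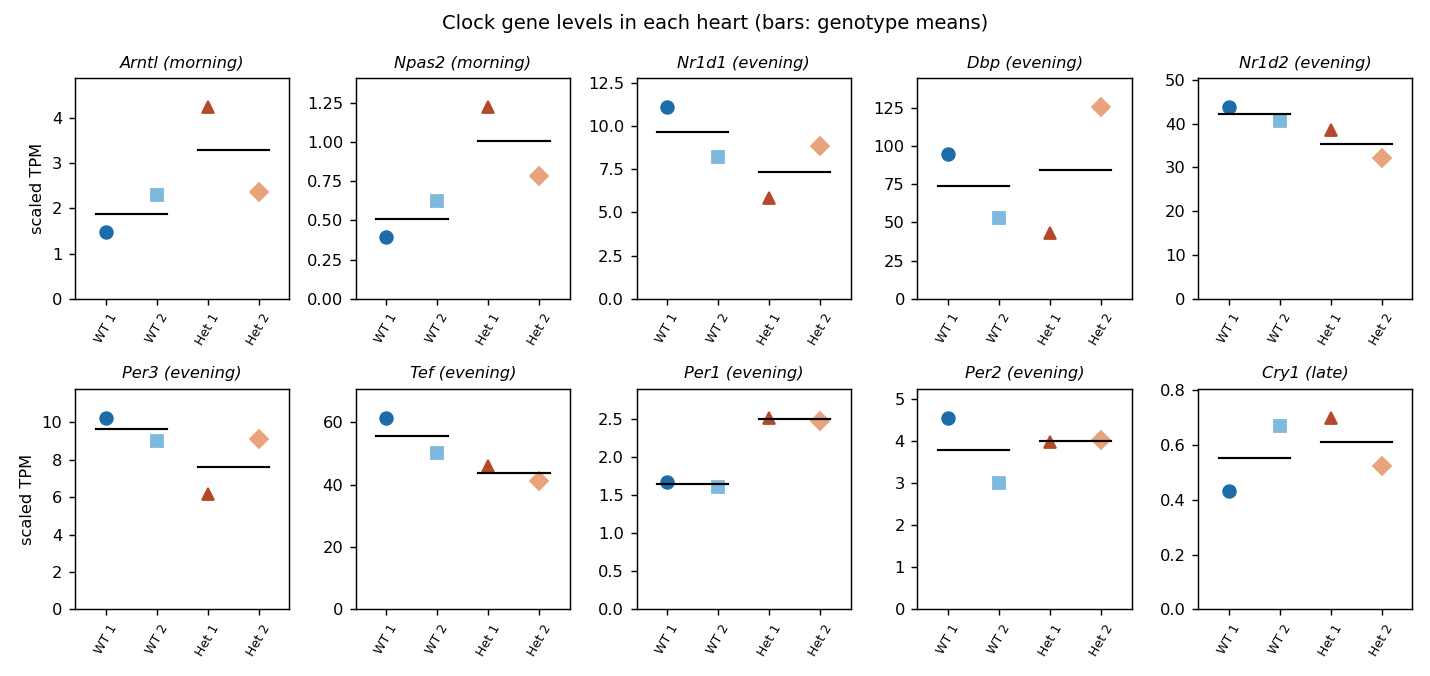
Scaled TPM (vertical axes, each starting at 0) of the 10 clock genes in each of the 4 hearts, with horizontal bars at the genotype means of 2 hearts. Arntl and Npas2 run from WT 1 at the bottom to Het 1 at the top, Dbp is highest in Het 2 at 125.2, and Per1 is the gene whose 2 genotypes form tight, separate pairs.

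The morning-phase genes were lowest in WT 1 and highest in Het 1. *Arntl* (ENSMUSG00000055116.8, chr7:113207465-113314126, plus strand, mm10) was measured at 1.47 scaled TPM in WT 1, 2.29 in WT 2, 4.23 in Het 1 and 2.36 in Het 2. WT 2 and Het 2 were nearly level, and the gap between genotypes came from the outer hearts, which were 2.88-fold apart. The genotype means were 1.88 ± 0.582 and 3.30 ± 1.33 (SD, n = 2 each), with a log2 fold change of 0.56 (SE 0.25, limma adjusted p = 0.416). Its log2 range over the 4 hearts was 1.08, and 3.33% of tested genes ranged at least as widely.

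*Npas2* (ENSMUSG00000026077.15, chr1:39193731-39363236, plus strand), which can stand in for CLOCK as the partner of ARNTL, kept the same order of hearts. It was measured at 0.395 in WT 1, 0.627 in WT 2, 1.22 in Het 1 and 0.786 in Het 2. With a mean under the testing minimum, on values deposited with 2 decimals, this order carries little weight alone. The genotype means were 0.511 ± 0.164 and 1.005 ± 0.309 (SD, n = 2), and without the minimum level the log2 fold change was 0.40 (SE 0.17, limma adjusted p = 0.601). The ratio of *Npas2* to *Arntl* stayed between 0.269 and 0.33 in the 4 hearts, while the highest heart was 2.88-fold above the lowest for *Arntl* and 3.09-fold for *Npas2*.

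The REV-ERB repressors differed in how they followed the morning genes. *Nr1d1* (ENSMUSG00000020889.11, chr11:98767932-98775333, minus strand) mirrored them, at 11.1 scaled TPM in WT 1, 8.20 in WT 2, 5.81 in Het 1 and 8.83 in Het 2. WT 1 and Het 1 were again the outer hearts, with the inner hearts almost level, and the genotypes overlapped. The log2 fold change was −0.37 (SE 0.23, adjusted p = 0.522), and 8.26% of tested genes had a range as wide as that of *Nr1d1*. The last exons of *Nr1d1* lie opposite those of the thyroid hormone receptor gene *Thra*, sharing 263 bases or 8.55% of its exon length. The strand setting of the counting is not given in the sources used here, so reads of the shared stretch cannot be assigned. *Thra* stood at 10.9, 9.50, 5.53 and 6.74 TPM as deposited in WT 1, WT 2, Het 1 and Het 2.

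*Nr1d2* (ENSMUSG00000021775.11, chr14:18204054-18239127, minus strand) was steadier and ordered differently, at 43.8 in WT 1, 40.7 in WT 2, 38.5 in Het 1 and 32.0 in Het 2. The genotypes did not overlap, with the heterozygous values lower, but the difference did not pass the test (log2 fold change −0.26, SE 0.18, adjusted p = 0.559). Its range was ordinary for the data set, as 42.9% of tested genes ranged at least as widely.

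*Dbp* (ENSMUSG00000059824.12, chr7:45705088-45710203, plus strand), a direct CLOCK:ARNTL target with a steep daily rhythm, had the widest range of the members on the log2(scaled TPM + 1) scale, at 1.52. It was measured at 94.9 scaled TPM in WT 1, 52.7 in WT 2, 43.0 in Het 1 and 125.2 in Het 2. Each genotype held a high and a low heart. Het 2 was 2.91-fold above Het 1, a difference that 0.668% of tested genes equalled or exceeded between these hearts, and WT 1 was 1.80-fold above WT 2, which 1.47% of tested genes equalled or exceeded. The genotype means of 73.8 ± 29.8 and 84.1 ± 58.1 (SD, n = 2) were indistinguishable beside this spread, with a log2 fold change of 0.05 (SE 0.50, adjusted p = 0.971). Without Het 1 the log2 fold change was 0.82 and without Het 2 it was −0.71. *Dbp* exons share 539 bases, or 18.0% of their length, with *Sphk2* on the opposite strand, which was at 2.01 to 2.45 TPM as deposited.

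*Tef* (ENSMUSG00000022389.15, chr15:81802421-81826863, plus strand), a D-box factor of the same family, did not share that pattern. It was measured at 61.3 in WT 1, 49.98 in WT 2, 46.0 in Het 1 and 41.2 in Het 2, with both heterozygous hearts under both wild-type hearts and in the same order as *Nr1d2*. The genotype means were 55.7 ± 8.04 and 43.6 ± 3.39 (SD, n = 2), a log2 fold change of −0.34 (SE 0.19, adjusted p = 0.478). The ratio of *Dbp* to *Tef* was 1.55, 1.05, 0.936 and 3.04 in WT 1, WT 2, Het 1 and Het 2, so Het 2 stood apart in the balance of these D-box factors. *Gm17597*, antisense to *Tef* over 193 bases, was at 0.09 TPM or below.

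The *Per* genes encode the repressor proteins of the main loop and gave 3 different patterns. *Per3* (ENSMUSG00000028957.12, chr4:151003652-151044665, minus strand), the member with 2 D-boxes shown above, followed *Nr1d1*, at 10.2 in WT 1, 8.99 in WT 2, 6.17 in Het 1 and 9.08 in Het 2. Het 1 alone was low, the other hearts lay close together, and the log2 fold change was −0.32 (SE 0.20, adjusted p = 0.524). *Per2* (ENSMUSG00000055866.9, chr1:91415982-91459324, minus strand) was measured at 4.54 in WT 1, 3.01 in WT 2, 3.98 in Het 1 and 4.01 in Het 2, so that the wild-type hearts enclosed a pair of nearly equal heterozygous values. Its log2 fold change was 0.08 (SE 0.18, adjusted p = 0.868).

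*Per1* (ENSMUSG00000020893.17, chr11:69095217-69109960, plus strand) responds to glucocorticoids and to immediate signals as well as to the clock, and it was the only evening-phase gene with both heterozygous hearts above both wild-type hearts. It was measured at 1.68 in WT 1, 1.61 in WT 2, 2.52 in Het 1 and 2.48 in Het 2. Replicates were 1.04-fold apart in wild type and 1.02-fold in heterozygotes, and the genotypes were separate, with means of 1.65 ± 0.0501 in wild type and 2.50 ± 0.0283 in heterozygotes (SD, n = 2) and a log2 fold change of 0.40 (SE 0.13). This was the smallest adjusted p of the set, 0.346, and it did not pass. The size of the gap depended on the scaling. As deposited, the TPM of *Per1* were 1.83, 2.03, 2.06 and 2.24 in WT 1, WT 2, Het 1 and Het 2, with a log2 fold change of 0.10. With mitochondrially encoded genes removed it was 0.23. The ratio of *Per1* to *Per3* was 0.165 in WT 1, 0.179 in WT 2, 0.409 in Het 1 and 0.273 in Het 2.

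*Cry1* (ENSMUSG00000020038.10, chr10:85131700-85185064, minus strand), the late-phase repressor, was low throughout, at 0.432 in WT 1, 0.667 in WT 2, 0.697 in Het 1 and 0.520 in Het 2. The genotypes overlapped, and the log2 fold change without the minimum level was 0.06 (SE 0.13, adjusted p = 0.885). At these levels, on values deposited with 2 decimals, its order of hearts carries little weight.

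**Figure D2:**
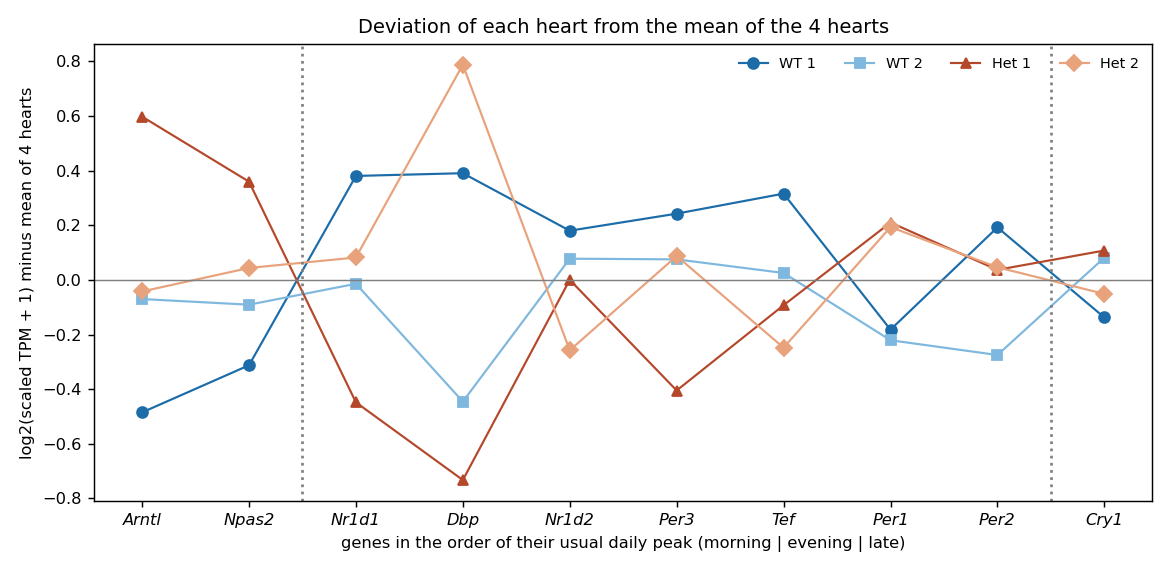
Deviation of each heart from the mean of the 4 hearts, in log2(scaled TPM + 1), for the 10 genes ordered by their usual daily peak, with dotted lines between morning, evening and late genes and connecting lines only to guide the eye. Het 1 is above the mean for Arntl and Npas2 and under it for Nr1d1, Dbp and Per3, WT 1 is the reverse, and Per1 places both heterozygous hearts above both wild-type hearts.

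The balance of evening-phase to morning-phase genes differed between hearts of the same genotype. For each heart the mean log2(scaled TPM + 1) of the 7 evening-phase genes minus that of the 2 morning-phase genes was 3.25 in WT 1, 2.60 in WT 2, 1.95 in Het 1 and 2.73 in Het 2. By this index WT 1 was thus the most evening-like and Het 1 the most morning-like. WT 2 and Het 2 lay between them, with the heterozygous heart the higher of that pair. The morning mean deviated from its mean over the 4 hearts by −0.40 in WT 1 and 0.48 in Het 1. The evening mean deviated by 0.22 and −0.20. The evening-phase genes did not share an order of hearts, and whether clock phase differed was not tested. The genotype means were 2.93 ± 0.46 and 2.34 ± 0.55 (SD, n = 2), a difference of −0.59. The hearts of the same genotype differed by more than that, by 0.65 in wild type and 0.78 in heterozygotes. With 2 hearts in each group an exact permutation test of a single value cannot go under p = 0.33, and none is given for this index.

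The positions of the outer hearts did not depend on the scaling, because a ratio within a heart cancels it. The TPM ratio of *Nr1d1* to *Arntl* was 7.54 in WT 1, 3.57 in WT 2, 1.37 in Het 1 and 3.75 in Het 2. That of *Per3* to *Arntl* was 6.95, 3.92, 1.46 and 3.85 in the same order, and that of *Tef* to *Arntl* 41.7, 21.8, 10.9 and 17.5. For *Dbp* the ratio to *Arntl* ran from 64.5 in WT 1 and 53.1 in Het 2 to 23.0 in WT 2 and 10.2 in Het 1. All 7 evening-phase genes had their highest ratio to *Arntl* in WT 1 and their lowest in Het 1, *Per1* included, at 1.14 and 0.595. These ratios share *Arntl*, which was itself lowest in WT 1 (1.47 scaled TPM) and highest in Het 1 (4.23). They are therefore not independent of each other, and *Arntl* weighs on which hearts are outermost in all of them. The scaled TPM of *Per1* alone was higher in Het 1 (2.52) than in WT 1 (1.68).

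**Figure D3:**
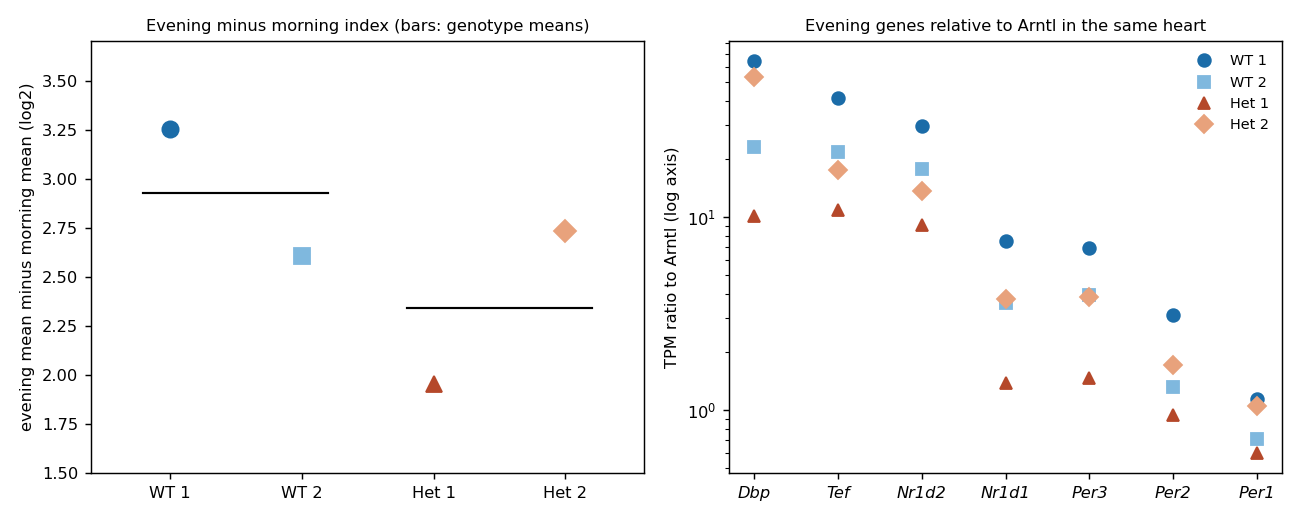
Left, the evening minus morning index (log2 scale, axis not starting at 0) in each heart, with bars at the genotype means. Right, the TPM ratio of each evening-phase gene to Arntl in the same heart (log axis). WT 1 is highest and Het 1 lowest for the index and for all 7 ratios, which share Arntl, with WT 2 and Het 2 between them.

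Without the pseudocount the index was 4.35, 3.34, 2.34 and 3.41 in WT 1, WT 2, Het 1 and Het 2, and without *Dbp* it was 2.84, 2.28, 1.66 and 2.24, both computed as alternatives added after the values were seen. WT 2 and Het 2 exchanged places without *Dbp*, with TPM as deposited (2.71 in WT 2 and 2.69 in Het 2) and with the median over evening-phase genes in place of the mean (2.11 and 2.04). In those 3 alternatives both wild-type hearts were above both heterozygous hearts, while in the index as given above they overlapped. The genotype difference was then −0.61, −0.72 and −0.85 in the same order, larger than the gap between the wild-type hearts. Without *Dbp* it was also larger than the gap between the heterozygous hearts, but not in the other alternatives of these 3. The genotype difference of the index was set by single hearts, as it was −0.26 without WT 1, −0.89 without WT 2, −0.20 without Het 1 and −0.99 without Het 2. Het 1 also held the highest values of the heat-shock chaperone genes *Hsph1*, *Dnajb1* and *Hsp90aa1*. *Hsph1* was at 28.05 against 4.28 to 7.55 in the other hearts, *Dnajb1* at 2.98 against 1.05 to 1.51, and *Hsp90aa1* at 11.5 against 6.84 to 7.87. *Hspa8*, the most abundant chaperone of the temperature-responsive list read below, was instead highest in WT 2. It was at 132.5, 159.6, 138.9 and 129.2 in WT 1, WT 2, Het 1 and Het 2. WT 1 had the lowest atrial marker sum and Het 2 the highest erythroid sum, as given above. The part of these differences in the clock values was not tested.

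Between genotypes, no member passed the test. Of the 8 tested, 0 reached an adjusted p under 0.05 with a fold change over 1.5 in limma, against 0.0199% of all tested genes, which is 2 genes. At an unadjusted p under 0.05, 1 member was higher in the heterozygous hearts, *Per1*, and 0 were lower, where 6.49% of all tested genes were higher and 5.71% lower. *Nr1d2* and *Tef* had both heterozygous hearts under both wild-type hearts, which held for 23.3% of tested genes. *Arntl* and *Per1* had both above, which held for 23.7% of tested genes, as did the untested *Npas2*. The 2 of 8 tested genes on each side are close to those shares, and nothing is read from them. Of the 8 log2 fold changes 4 were negative and 4 positive, with a median of −0.10. The signs of *Dbp* and *Per2* turned negative with TPM as deposited (−0.38 and −0.27), so that 6 of the 7 evening-phase genes were then lower, against 4 here. With TPM as deposited 4 of the 8 members were lower at an unadjusted p under 0.05, where 33.3% of all tested genes were, and 4 of 8 with mitochondrially encoded genes removed, where 28.5% were.

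**Figure D4:**
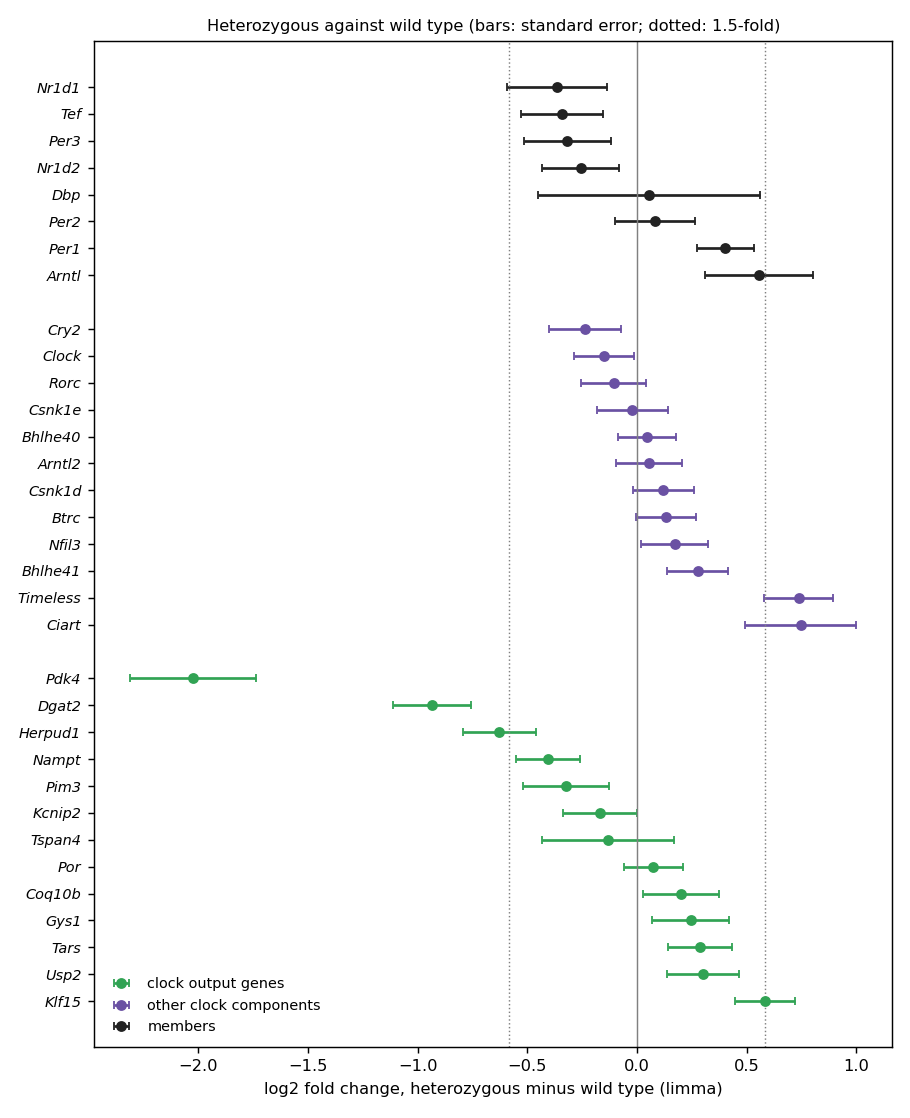
Log2 fold change, heterozygous minus wild type, from limma with its standard error (bars), for the tested members and the other clock components and clock output genes reported here. Dotted lines mark 1.5-fold. The members lie between −0.37 and 0.56, while Pdk4 at −2.02 is farthest from 0, and none of these genes passed the adjusted threshold.

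Of 17 other clock components, 13 were tested and 0 passed, with 5 lower, 8 higher and a median log2 fold change of 0.05. With TPM as deposited 10 were lower and 3 higher, beside a median of −0.35 over all tested genes. *Clock*, the usual partner of *Arntl*, stood at 1.31, 1.43, 1.22 and 1.05 scaled TPM in WT 1, WT 2, Het 1 and Het 2, with the heterozygous values lower and no overlap, but did not pass the test (log2 fold change −0.15, SE 0.14, adjusted p = 0.662). *Ciart*, a repressor of CLOCK:ARNTL with an evening peak, stood at 2.02, 1.17, 2.45 and 4.36, highest in Het 2 as *Dbp* was (0.75, SE 0.25, adjusted p = 0.360). *Timeless*, a replication fork protein related by name to a fly clock gene, stood at 8.32, 7.22, 12.9 and 14.3 (0.74, SE 0.16, adjusted p = 0.290). *Ciart* and *Timeless* were at an unadjusted p under 0.05 on the higher side, where 6.49% of all tested genes were. Neither was past adjustment, and both kept their direction with TPM as deposited.

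Of 16 clock output genes of the heart, 13 were tested and 0 passed. At an unadjusted p under 0.05, 4 were lower and 1 higher, where 5.71% and 6.49% of all tested genes were. The median log2 fold change was −0.13 with 7 lower and 6 higher values. With TPM as deposited 12 were lower and 1 higher, beside a median of −0.35 over all tested genes. *Pdk4*, which restrains pyruvate entry to the mitochondrion and is induced by fasting, stood at 13.9, 7.78, 2.37 and 1.34 scaled TPM in WT 1, WT 2, Het 1 and Het 2, with no overlap (−2.02, SE 0.29, adjusted p = 0.174). Its adjusted p was 0.00729 with the replicate number as a block. *Dgat2*, of triglyceride synthesis, stood at 23.4, 25.9, 10.9 and 14.1 (−0.93, SE 0.18, adjusted p = 0.271). *Herpud1*, of endoplasmic reticulum protein degradation, stood at 30.6, 25.9, 17.9 and 17.8 (−0.63, SE 0.17, adjusted p = 0.335), and *Nampt*, the rate-limiting enzyme of NAD salvage and a CLOCK:ARNTL target, at 12.2, 11.1, 8.56 and 8.55 (−0.41, SE 0.15, adjusted p = 0.372). *Klf15*, a regulator of cardiac metabolic and ion channel rhythms, went the other way, at 4.63, 4.22, 7.07 and 7.16 (0.58, SE 0.14, adjusted p = 0.308). These 5 genes were named for a small p between genotypes, so their separate genotypes follow from that choice. Among tested output genes not named for p, *Pim3* stood at 12.5, 12.2, 8.00 and 11.6 and *Tspan4* at 14.7, 12.1, 8.49 and 17.0. Both were lowest in Het 1, as was *Kcnip2*, and were named after their values were seen. The others went differently, as *Usp2*, *Tars*, *Por* and *Coq10b* were lowest in WT 2 and *Gys1* was highest in Het 1, at 7.22.

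Hormones, handling and temperature can also move *Per1* and other clock genes, and 3 lists of genes that respond to them were read beside the members. Of 13 glucocorticoid-responsive genes 10 were tested and 0 passed. The median log2 fold change was −0.08, with 7 of 10 lower here and 10 of 10 with TPM as deposited. That scaling moved the median over all tested genes to −0.35. At an unadjusted p under 0.05, 3 were lower and 0 higher, where 5.71% and 6.49% of all tested genes were. Those 3 were *Pdk4*, *Angptl4*, a lipase inhibitor, at 3.18, 1.75, 0.465 and 0.255 (−1.32, adjusted p = 0.208), and *Klf9*, at 3.32, 3.20, 2.30 and 1.95 (−0.45, adjusted p = 0.341). They were picked by p, and the list also held genes with a higher heterozygous mean. *Fkbp5*, under the testing minimum, was at 0.882, 0.667, 1.08 and 1.18, and *Sgk1* had a log2 fold change of 0.18 (SE 0.17, adjusted p = 0.672). Of 12 immediate early genes 7 were tested and 0 passed, with a median of 0.03 and 3 lower values (6 with TPM as deposited). *Egr1* had the smallest p among them, at 1.81, 2.36, 1.42 and 1.151 (−0.43, adjusted p = 0.372).

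Of 8 temperature-responsive genes 6 were tested and 0 passed, with a median of 0.19 and 2 lower values (4 with TPM as deposited). The cold-inducible *Cirbp*, whose product stabilises clock transcripts, stood at 7.77, 8.76, 4.23 and 6.25 (−0.59, adjusted p = 0.348), lowest in Het 1, while the cold-inducible *Rbm3* was highest in Het 2, at 38.9, 35.5, 35.7 and 45.1. The chaperone *Hsph1* had a log2 fold change of 1.45 (SE 0.51, adjusted p = 0.368) with Het 1 far above Het 2, as given above. *Hspa1a* and *Hspa1b*, near-identical copies whose reads cannot be told apart with certainty, were highest in Het 1 too, at 0.489 and 0.440 against 0.210 or below in the other hearts.

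Genes other than the members had nearly the same profiles over the 4 hearts. Among 4606 other genes averaging at least 5 TPM, those nearest to the mean evening-phase profile were *Fbxo7*, *Gm45670*, *Mif*, *Sox18*, *Bphl* and *Vipas39*, at a root mean square log2 difference of 0.015 to 0.046. *Fbxo7* stood at 5.97, 4.42, 4.17 and 5.27 scaled TPM in WT 1, WT 2, Het 1 and Het 2, a high WT 1 and a low Het 1 as in *Nr1d1*. Those nearest to the mean morning-phase profile were *Dpf2*, *Matr3*, *Wdr82*, *Dnajb5*, *Zfp629* and *Obsl1*, at 0.048 to 0.065. *Dpf2* stood at 12.5, 14.5, 23.6 and 16.8. Likeness over 4 libraries describes these values only.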

How the data were processed

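Total RNA was taken from hearts, and polyA RNA libraries were sequenced, 2 for each genotype. Per the methods, the tools were Trim Galore (0.6.10) for trimming, STAR (2.7.4a) for alignment to mm10, and RSEM (1.2.28), whose gene-level TPM the authors deposited with 2 decimals. The authors also applied DESeq2 to read counts, which were not used here. The annotation release is not given in the sources used here. TPM keeps no depth, so no counting interval can be given.

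TPM were scaled by median-of-ratios factors, taken from genes averaging at least 1 TPM and detected in all 4 libraries, and transformed as log2(scaled TPM + 1). Fold changes are on that scale, which understates those of low genes. limma (3.58.1, R 4.3.3; lmFit and trended eBayes) gave a two-sided test of the 10036 genes averaging at least 1 TPM. All adjusted p values are its Benjamini-Hochberg values, and a call needed one under 0.05 plus a fold over 1.5. The script was tested on simulated data. Other values were computed with Python (3.11.15) and pandas (2.3.3).

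The members, the lists and the comparisons were chosen with earlier results of these data known. Named are the 10 members in every heart, genes of the other clock and output lists with a fold over 1.5 or an unadjusted p under 0.05, *Clock*, up to 3 genes of each context list by smallest p, and the 6 nearest profiles of each class. A gene of these lists that the rule would name is not reported here. *Hspa1a*, *Hspa1b*, *Hspa8*, *Hsp90aa1*, *Rbm3*, *Fkbp5* and *Sgk1* were named after their values were seen. So were the output genes *Pim3*, *Tspan4*, *Kcnip2*, *Usp2*, *Tars*, *Por*, *Coq10b* and *Gys1*. Gene coordinates are those of GENCODE M21 (mm10), to which 55141 gene identifiers matched. Alternatives covered pseudocount, filter, scaling, variance model, replicate block, threshold, index definition and each heart left out.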

Additional observations from a re-analysis of the deposited data

How the results depend on the processing

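With 2 libraries in each genotype and no depth, differences of the size seen in most clock genes could not be separated from the spread between hearts. All 109 recomputed log2 fold changes of members missed the call, and 102 kept their sign. The exceptions were *Dbp* (−0.38 with TPM as deposited, −0.28 with mitochondrially encoded genes removed, −0.71 to 0.82 with a heart left out, negative without WT 2 or Het 2) and *Per2* (−0.27, −0.21, and −0.15 to 0.31, negative without WT 2). The number of members at an unadjusted p under 0.05 was 1, all higher, and became 0 at a mean TPM of at least 5, where *Per1* is not tested, 4 with TPM as deposited and 4 with mitochondrially encoded genes removed, all lower in both cases (33.3% and 28.5% of all tested genes were lower at that threshold under the same scalings), and 0 to 4 with a heart left out. Those scalings moved the median of all genes to −0.35 and −0.31. The genotype difference of the index stayed negative in all alternatives, from −0.99 to −0.20. Over all genes the 2 calls became 4 with a pseudocount of 0.1, 0 without a filter, 13 with TPM as deposited (11 lower, 2 higher), 14 without mitochondrially encoded genes (12 lower, 2 higher), 5 with the robust variance model, 5 at an adjusted p under 0.1, and 10 to 25 with a heart left out, where a lone heart is assumed to vary like the other genotype. With the replicate block the calls were 10 (7 lower, 3 higher), including *Pdk4* (adjusted p = 0.00729) and no member. The labels do not say that libraries of a number share anything, and the deviations of same-numbered libraries correlated at 0.10 across 10036 genes, so the numbers were not taken as pairs. The causes of these changes were not tested.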
